A study of Rattus norvegicus with 10 samples.

Results

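Nr3c1, which encodes the glucocorticoid receptor, and 2 of its best-known response genes, Fkbp5 and Sgk1, were followed in the PFC of rats that had been given MK-801. The 3 genes were taken by their Ensembl identifiers, ENSRNOG00000014096 for Nr3c1, ENSRNOG00000022523 for Fkbp5 and ENSRNOG00000011815 for Sgk1, out of 30560 genes in the count table. The data came from 10 male SD rats, wild type and 21 days old at purchase, that were housed singly and given 1 week to habituate. A group of 5 rats then received MK-801, a non-competitive NMDAR antagonist, at 0.2 mg/kg by daily intraperitoneal injection for 2 weeks, and the control group of 5 rats received 0.9% saline by the same route, so that handling and injection were shared by both groups. Each rat gave 1 library, with a total between 24334589 and 30824539 counts. Neither the time from the last injection to the collection of tissue in these rats nor a level of corticosterone is given in the sources used here.

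Corticosterone, the main glucocorticoid of the rat, is released from the adrenal cortex under stress and along the daily rhythm. It enters cells and binds the glucocorticoid receptor, which rests in the cytoplasm with chaperones of the HSP90 machinery, moves to the nucleus on binding and changes the transcription of genes near its binding sites. Fkbp5 encodes FKBP51, a co-chaperone that lowers the affinity of the receptor for its hormone, and its induction forms a short feedback loop. Sgk1 encodes a serine/threonine kinase that acts on ion channels and transporters. Both genes are widely used as readouts of glucocorticoid action in the brain, where Sgk1 is also expressed strongly by oligodendrocytes.

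The promoters of the 3 genes are shown first, because the response genes were compared as transcripts and these are the stretches from which transcription of the annotated RNAs begins. RefSeq, on the GRCr8 assembly, lists 6 start sites for the 3 genes, 3 of Sgk1, 2 of Nr3c1 and 1 of Fkbp5, each with a window from 250 bases before to 50 bases after the start. The counts were made on another build, mRatBN7.2, so these windows were matched by symbol alone. A window is printed for each gene, on the minus strand of chr18:31613390-31613689 for Nr3c1, chr20:6543506-6543805 for Fkbp5 and chr1:24804782-24805081 for Sgk1, with a TATA box (TATAAA on either strand) in capitals.
Nr3c1: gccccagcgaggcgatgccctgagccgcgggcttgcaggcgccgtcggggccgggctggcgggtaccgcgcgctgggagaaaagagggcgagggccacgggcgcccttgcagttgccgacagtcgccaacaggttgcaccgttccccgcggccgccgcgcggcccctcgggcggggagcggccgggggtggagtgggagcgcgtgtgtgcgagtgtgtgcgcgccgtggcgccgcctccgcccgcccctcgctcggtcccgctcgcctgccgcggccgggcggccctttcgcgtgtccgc
Fkbp5: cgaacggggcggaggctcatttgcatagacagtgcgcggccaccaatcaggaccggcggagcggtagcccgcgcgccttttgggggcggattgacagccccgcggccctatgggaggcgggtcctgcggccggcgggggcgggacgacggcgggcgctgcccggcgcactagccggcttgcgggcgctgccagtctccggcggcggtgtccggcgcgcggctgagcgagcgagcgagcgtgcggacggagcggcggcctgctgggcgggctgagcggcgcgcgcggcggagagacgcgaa
Sgk1: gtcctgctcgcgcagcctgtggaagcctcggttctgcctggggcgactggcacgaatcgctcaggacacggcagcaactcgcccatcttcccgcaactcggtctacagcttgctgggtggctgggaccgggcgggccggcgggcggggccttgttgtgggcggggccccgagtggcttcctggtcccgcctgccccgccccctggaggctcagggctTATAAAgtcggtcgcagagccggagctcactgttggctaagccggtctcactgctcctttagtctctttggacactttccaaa

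The windows of Nr3c1 and Fkbp5 were rich in G and C, with 66.0% and 79.0% for the 2 windows of Nr3c1 and 77.0% for that of Fkbp5, against a median of 51.7% over the 33365 distinct promoter windows of the assembly. None of these 3 windows held a TATA box. The printed Sgk1 window had 66.0% G and C and a TATA box at position -33 from the start, and a further Sgk1 window, at 40.7% G and C, had 1 at position -55. The remaining Sgk1 window, at 51.7% G and C, held no TATA box. Of all windows, 14.2% held TATAAA on either strand. The search took these letters anywhere in a window, so a match is not shown to act as a TATA box. The palindrome bound by the receptor was searched as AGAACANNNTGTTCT, and its arm as AGAACA, both on either strand. Neither was found in the 6 windows, while 20.6% of all windows held the arm and 0.015% the palindrome, which contains 2 arms. This says only that these letters did not occur in these short windows, since sites of the receptor often lie in introns or far upstream.

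Neither the receptor nor its response genes differed detectably between the MK-801 group and the control group. For Nr3c1 and Fkbp5 the group means were nearly equal, and for Sgk1 the MK-801 mean was higher, with a spread that took in the difference. The comparison asked whether transcripts that follow the action of stress hormone differed between the groups. Levels are given as CPM, that is, counts relative to the size of the library after TMM scaling, and a fold change above 0 on the log2 scale means a higher level after MK-801. All 3 genes passed the filter on low counts, and their counts ranged from 630 for Fkbp5 to 2967 for Nr3c1 in single rats. In whole tissue, a change in the number of cells of a type and a change in RNA per cell cannot be told apart.

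Nr3c1, the receptor, had 92.5, 85.9, 98.2, 94.8 and 91.2 CPM in control replicates 1 to 5. In MK-801 replicates 1 to 5 it had 93.6, 82.0, 104, 90.2 and 95.7 CPM. The highest and the lowest rat were both of the MK-801 group, and the other MK-801 rats lay among the control rats. The means were 92.5 ± 4.55 CPM (SD, n = 5) in the control group and 93.1 ± 8.07 CPM (SD, n = 5) with MK-801. The log2 fold change was 0.01 (SE 0.06), and the QL test of edgeR gave an adjusted p = 0.961 over the 16137 genes that passed the filter. Its 95% interval ran from -0.13 to 0.15, that is, from a 0.914-fold to a 1.11-fold level. An exact permutation test of the mean log2 CPM, two-sided, gave p = 0.921. The sign of this difference was not settled, since leaving out MK-801 replicate 3 gave -0.03 and leaving out MK-801 replicate 2 gave 0.05.

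Fkbp5, the co-chaperone gene that the receptor induces, had 27.7, 25.6, 29.3, 29.1 and 25.1 CPM in control replicates 1 to 5. In MK-801 replicates 1 to 5 it had 25.7, 27.8, 28.7, 27.5 and 26.2 CPM. All 5 MK-801 rats fell between the lowest and the highest control rat. The means were 27.4 ± 1.95 CPM (SD, n = 5) in the control group and 27.2 ± 1.22 CPM (SD, n = 5) with MK-801. The log2 fold change was -0.01 (SE 0.06, edgeR QL adjusted p = 0.952), with a 95% interval from -0.15 to 0.12, or a 0.903-fold to a 1.09-fold level. The exact permutation test, two-sided, gave p = 0.857. As for Nr3c1, the sign followed single rats, from -0.04 without control replicate 5 to 0.01 without control replicate 3.

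Sgk1, the kinase gene, had 37.4, 31.0, 43.1, 41.1 and 38.3 CPM in control replicates 1 to 5. In MK-801 replicates 1 to 5 it had 35.6, 39.95, 49.4, 40.1 and 63.9 CPM. MK-801 replicates 3 and 5 lay above every control rat, the other 3 MK-801 rats lay within the control range, and control replicate 2 was the lowest of all. The means were 38.2 ± 4.62 CPM (SD, n = 5) in the control group and 45.8 ± 11.3 CPM (SD, n = 5) with MK-801. The log2 fold change was 0.26 (SE 0.15), a 1.20-fold level with a 95% interval from 0.962-fold to 1.49-fold. It did not pass the test, with an edgeR QL adjusted p = 0.437 (unadjusted p = 0.0984), and the exact permutation test, two-sided, gave p = 0.230. The medians of the groups were closer than the means, at 38.3 CPM in the control group and 40.1 CPM in the MK-801 group. RefSeq also annotates a pseudogene named after Sgk1, and the sources do not say how reads that match both were counted.

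**Figure D1:**
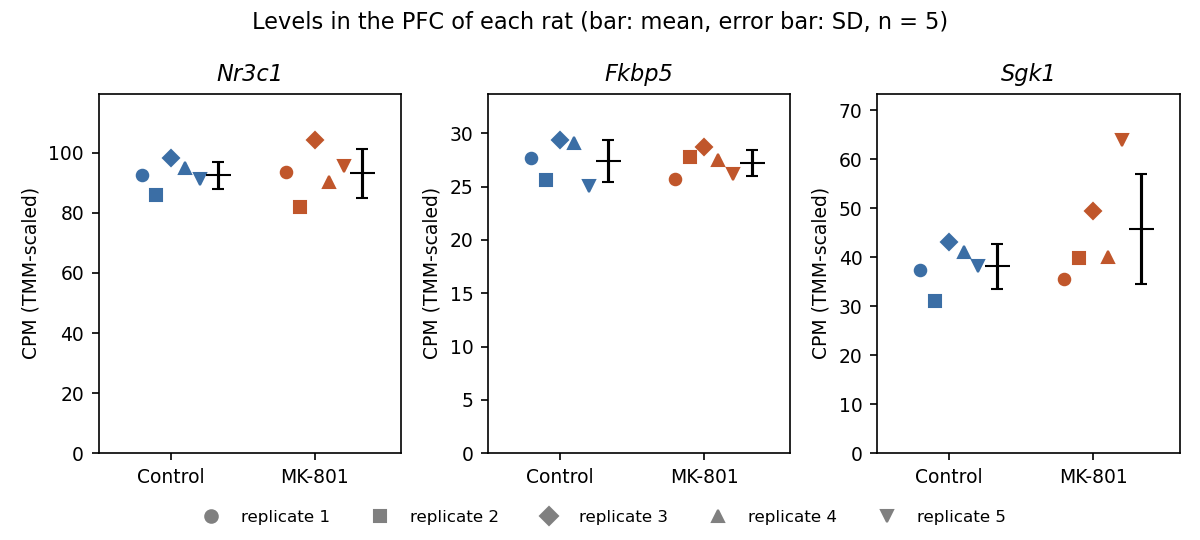
Level of Nr3c1, Fkbp5 and Sgk1 in CPM (vertical axes, from 0) in each of the 5 control and 5 MK-801 rats, with a symbol for each replicate number and the mean ± SD beside the points. The groups overlap in all 3 genes, and the highest Sgk1 level, 63.9 CPM, belongs to MK-801 replicate 5.

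A large part of the higher Sgk1 mean came from 1 rat. Without MK-801 replicate 5, the mean of the MK-801 group was 41.2 ± 5.82 CPM (SD, n = 4) and the log2 fold change fell to 0.11 (edgeR QL adjusted p = 0.679). The difference in mean log2 CPM was then 0.11 (exact permutation test, two-sided, p = 0.444), against 0.24 with all rats. This rat did not stand apart in the other genes of the axis, with 95.7 CPM of Nr3c1 and 26.2 CPM of Fkbp5, neither the highest nor the lowest of its group. Over all genes tested it was the highest of the 10 rats in 14.2% of them, against 4.94% to 15.7% for the other rats. Its 10 most abundant genes took 5.86% of its counts, the lowest such share among the rats. With this share as a covariate the log2 fold change of Sgk1 was 0.26 (SE 0.19, edgeR QL unadjusted p = 0.203, adjusted p = 0.916). No gene had a smaller adjusted p in that fit. The share was 7.53%, 8.09%, 10.95%, 8.77% and 6.005% in control replicates 1 to 5, against 5.86% to 7.05% in the MK-801 rats. Share and treatment were thus partly confounded, and this fit cannot fully separate them. Without MK-801 replicate 1, the lowest rat of the group in Sgk1, the log2 fold change was 0.34 (edgeR QL adjusted p = 0.448, unadjusted p = 0.0347).

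Against the whole table, the 3 genes gave no calls. The QL test of edgeR called 0 of the 3 genes at an adjusted p-value under 0.05, and 0 of all 16137 genes (0%). The study's methods select DESeq2 results on a p-value under 0.05, read here as unadjusted, with a log2 change of 1 or more either way. Applied here to the edgeR fit, these criteria again called 0 of the 3 genes, against 37 genes (0.229%) of all tested. At an unadjusted p-value under 0.05 alone there were 0 of 3, against 2235 genes (13.9%), and 0 of 3 had groups that did not overlap, against 372 genes (2.31%). DESeq2, run without that filter, tested 23914 genes, gave an adjusted p to 14170 of them and called 104 (0.435% of those tested). On the same 16137 genes as edgeR it called 117 (0.725%). By the criteria of the study's methods, DESeq2 called 115 genes without the filter and 37 on those 16137 genes. None of the 3 genes was called in either run, with adjusted p of 0.953 and 0.959 for Nr3c1, 0.972 and 0.967 for Fkbp5 and 0.387 and 0.389 for Sgk1. In absolute size, the change of Nr3c1 was larger than that of 5.08% of the genes tested, that of Fkbp5 larger than 6.12%, and that of Sgk1 larger than 83.9%. The 95% intervals of all 3 genes lay inside the fold change criterion, the farthest bound being 0.58 for Sgk1.

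**Figure D2:**
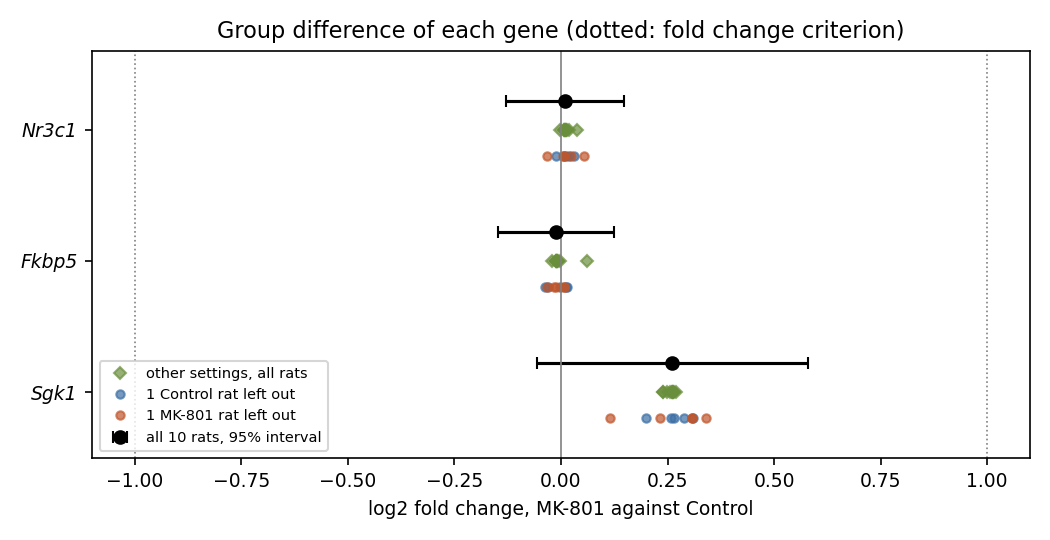
Log2 fold change of each gene, MK-801 against control (horizontal axis), with the 95% interval from the edgeR fit over all 10 rats in black, the other settings as green diamonds, the fits without 1 rat as blue (control) and orange (MK-801) points and dotted lines at the fold change of the study's criteria. Nr3c1 and Fkbp5 sit around 0, and Sgk1 ranges from 0.11 without MK-801 replicate 5 to 0.34 without MK-801 replicate 1.

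The genes differed in how much they varied among rats of a group. For Fkbp5 the coefficient of variation was 7.14% in the control group and 4.49% in the MK-801 group, and for Nr3c1 it was 4.92% and 8.66%, the first falling to 3.27% without control replicate 2. For Sgk1 it was 12.1% in the control group and 24.7% in the MK-801 group. Both Sgk1 values rested on 1 rat, being 6.60% without control replicate 2 and 14.1% without MK-801 replicate 5. Among the genes tested within 0.5 log2 CPM of its own level, the within-group SD of Sgk1 was larger than that of 94.4% of 2572 genes. The same share was 48.8% of 1853 genes for Nr3c1 and 22% of 2549 genes for Fkbp5. In the control group alone, the SD of Sgk1 exceeded that of 84.2% of genes at a similar level, but without control replicate 2 it exceeded 38.5% and its coefficient of variation was below the 7.05% of Fkbp5 in the same 4 rats. In the MK-801 group the SD of Sgk1 exceeded that of 96.0% of such genes, and of 89.3% without MK-801 replicate 5.

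Ratios of counts within a library were compared next, since they do not depend on how libraries are scaled and show whether the receptor and its response genes differed in their change. In the control group the Fkbp5/Nr3c1 ratio was 0.300, 0.299, 0.299, 0.307 and 0.275 in replicates 1 to 5, and in the MK-801 group it was 0.275, 0.339, 0.276, 0.304 and 0.274. The groups overlapped, since MK-801 replicate 4 lay among control replicates 1 to 4 and MK-801 replicates 1, 3 and 5 lay beside control replicate 5. MK-801 replicate 2 had the highest ratio of all. The group difference on the log2 scale was -0.02, with an interval from -0.14 to 0.16 (exact permutation test, two-sided, p = 0.952, adjusted over the 3 ratios p = 0.952). These are ratios of counts, not corrected for transcript length, so their absolute size says nothing on which transcript was more abundant.

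The Sgk1/Nr3c1 ratio was 0.405, 0.361, 0.439, 0.434 and 0.420 in control replicates 1 to 5. In MK-801 replicates 1 to 5 it was 0.380, 0.487, 0.474, 0.444 and 0.668. In 4 of the 5 MK-801 rats it was above every control rat, and MK-801 replicate 1 lay within the control range. The log2 difference was 0.23, with an interval from -0.06 to 0.58, and did not pass the test (exact permutation test, two-sided, p = 0.119, adjusted over the 3 ratios p = 0.250). The result turned on that rat, since without MK-801 replicate 1 the difference was 0.32 and the groups did not overlap (exact permutation test, two-sided, p = 0.00794, the smallest that 4 rats against 5 allow, adjusted over the 3 ratios p = 0.0238). As no other MK-801 rat lay within the control range, leaving it out fixed this p beforehand. Of the 10 tests with 1 rat left out, only this 1 passed at an adjusted p under 0.05. Without MK-801 replicate 5, the difference was 0.11 (exact permutation test, two-sided, p = 0.246, adjusted p = 0.5).

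The Sgk1/Fkbp5 ratio, between the response genes, ran from 1.21 to 1.53 in the control rats, with a mean of 1.39 ± 0.122 (SD, n = 5). In MK-801 replicates 1 to 5 it was 1.38, 1.44, 1.72, 1.46 and 2.44. MK-801 replicates 3 and 5 exceeded every control rat, as they did in the Sgk1 level itself. The log2 difference was 0.25, with an interval from -0.06 to 0.68 (exact permutation test, two-sided, p = 0.167, adjusted over the 3 ratios p = 0.250). Without MK-801 replicate 5 the difference was 0.11 (exact permutation test, two-sided, p = 0.333, adjusted p = 0.5). A different change of Sgk1 and Fkbp5 was therefore not shown.

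**Figure D3:**
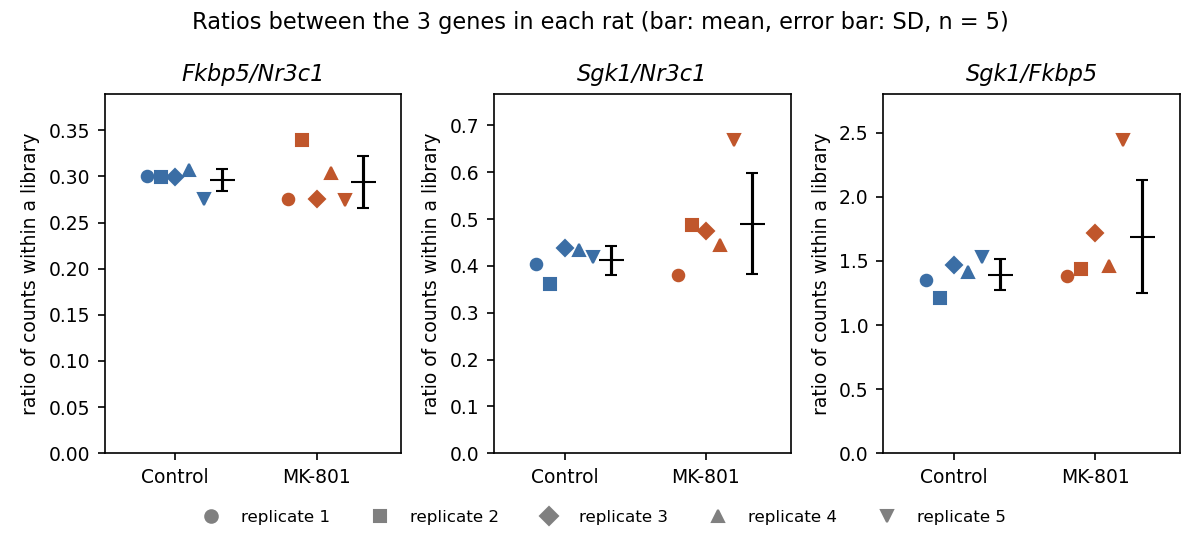
Ratio of the counts of 2 genes within a library (vertical axes, from 0) for each control and MK-801 rat, with a symbol for each replicate number and the mean ± SD beside the points. In Sgk1/Nr3c1, 4 of the 5 MK-801 rats lie above the highest control ratio of 0.439.

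Lastly, it was asked whether rats with more receptor transcript also had more of the response transcripts. For this, the deviation of each rat from the mean log2 CPM of its group was taken, over 10 rats, for 3 pairs of genes. Sgk1 and Nr3c1 had the highest correlation (Pearson's r = 0.583, exact permutation p = 0.157, adjusted over the 3 pairs p = 0.343). Their Spearman's rho was 0.745, which did not hold after adjustment (exact permutation p = 0.0347, adjusted p = 0.104). Control replicates 3 and 4 and MK-801 replicates 3 and 5 were above their group means in both genes. Control replicate 2 and MK-801 replicates 2 and 4 were below in both. Control replicates 1 and 5 and MK-801 replicate 1 were above in 1 gene and below in the other. Without the 2 rats farthest from the median of Nr3c1, MK-801 replicates 2 and 3, r was 0.667, and without MK-801 replicate 5 it was 0.707. The pooled value joined groups that did not look alike. In the control rats the order of the Sgk1 levels was that of the Nr3c1 levels but for replicates 1 and 5, which were neighbours in both. In the MK-801 rats, replicate 5 was the highest in Sgk1 and second to replicate 3 in Nr3c1, and replicate 1 was the lowest in Sgk1 and in the middle for Nr3c1. With 5 rats in a group no correlation is given for a group alone, and the difference between the groups was not tested.

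Fkbp5 and Nr3c1 correlated less (Pearson's r = 0.396, exact permutation p = 0.229, adjusted p = 0.343, Spearman's rho = 0.491, exact permutation p = 0.140, adjusted p = 0.152), with r = 0.594 without the same 2 rats. Leaving out MK-801 replicate 2 alone gave r = 0.703 (exact permutation p = 0.0431, adjusted p = 0.129) and leaving out MK-801 replicate 3 gave 0.222. Here too the control rats kept nearly 1 order, with replicates 3, 4 and 1 the highest in both genes, in that order, and replicates 2 and 5 the lowest. Among the MK-801 rats, replicate 3 was the highest in both genes, whereas replicate 2 was the lowest in Nr3c1 and second in Fkbp5. Sgk1 and Fkbp5 had the lowest r (Pearson's r = 0.306, exact permutation p = 0.351, adjusted p = 0.351, Spearman's rho = 0.467, exact permutation p = 0.152, adjusted p = 0.152). Without the 2 rats farthest from the median of Fkbp5, control replicates 2 and 5, their r was 0.200. For this pair MK-801 replicate 5 carried the most weight, since it had 0.51 more Sgk1 and 0.05 less Fkbp5 than its group mean on the log2 scale, and without it r was 0.762 (exact permutation p = 0.0212, adjusted p = 0.0635). Library scaling is shared by all genes of a rat, and moves these deviations together. Control replicates 3 and 4, above their group mean in all 3 genes, had the lowest TMM factors of all rats (0.968 and 0.976). They also had the highest shares of counts in their 10 most abundant genes (10.95% and 8.77%). Whether the shared order of the control rats came from this was not tested.

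**Figure D4:**
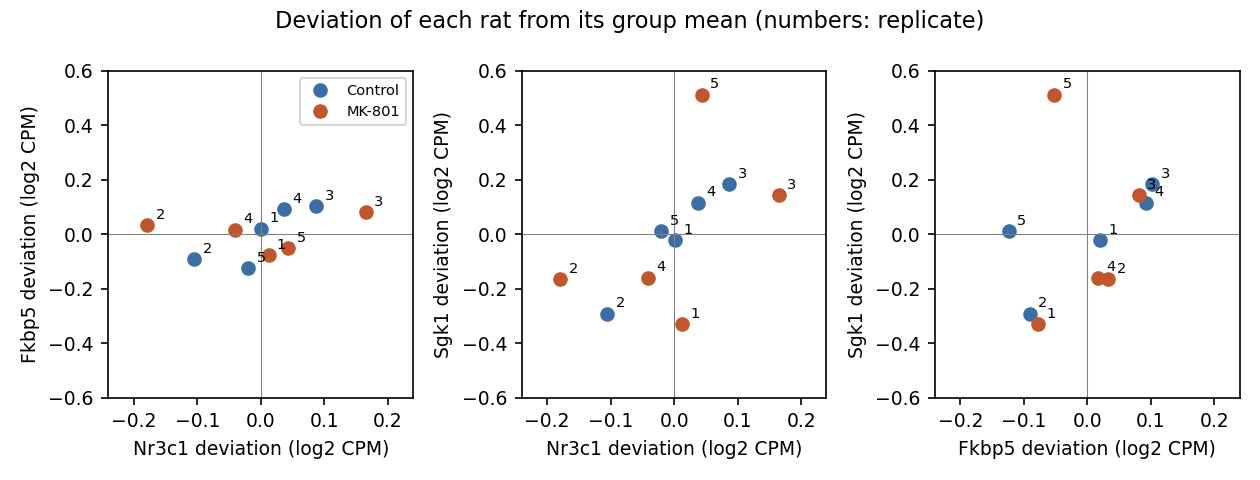
Deviation of each rat from the mean of its group in log2 CPM, for Nr3c1 against Fkbp5, Nr3c1 against Sgk1 and Fkbp5 against Sgk1, with replicate numbers beside the points. MK-801 replicate 5 lies 0.51 above its group mean in Sgk1 and close to it in the other genes.

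By the Pearson correlation of the same deviations over 10 rats, Sgk1 was 920th and Fkbp5 2467th in likeness to Nr3c1 among all other genes tested, that is, within the first 5.70% and 15.3% of them. Without MK-801 replicate 5, these shares were 3.16% and 14.7%. The gene most like Nr3c1 was ENSRNOG00000008058 (r = 0.931), the one most like Fkbp5 was ENSRNOG00000042668 (r = 0.953), and the one most like Sgk1 was ENSRNOG00000052880 (r = 0.940, or 0.867 without MK-801 replicate 5). The next 2 of each lay between 0.928 and 0.938. The deposited table gives no names for these identifiers. Such values are the highest of many correlations over few rats and are given as a description.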

How the data were processed

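The authors sequenced PFC RNA from 5 control and 5 MK-801 male SD rats, aligned the reads with HISAT2 2.2.1 and SAMtools 1.15.1 and assigned them to Ensembl genes with featureCounts (Subread 2.0.1). The submitters' processing notes name the build mRatBN7.2. The strand setting and the treatment of reads with several matches are not given in the sources used here. The values they deposited are raw counts, with 1 column for each rat. Groups and replicate numbers were taken from the sample titles.

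From these counts, 16137 of 30560 genes were kept with filterByExpr (minimum count 10, minimum total 15), scaled by TMM and tested two-sided with edgeR 4.0.16 (glmQLFit and glmQLFTest, the QL test; R 4.3.3) and Benjamini-Hochberg adjustment over all genes tested. Log2 CPM used a prior count of 2. The SE was the size of the fold change over the square root of F, and 95% intervals used the degrees of freedom of the fit. Single values were compared by exact permutation of the rats (252 arrangements, smallest p = 0.00794). Intervals of ratios, formed with 0.5 added to each count, hold the shifts that this test keeps. Correlations were tested two-sided by exact permutation within groups (14400 arrangements). Fits were tested on simulated data. The alternatives were DESeq2 1.42.0, limma-voom (limma 3.58.1), RLE and upper quartile scaling, no filter or a mean of 10 counts, a prior count of 2 in place of 0.125, the counts' share in the top 10 genes as a covariate, the replicate block and each rat left out. The likest genes and the permutation test of Sgk1 without MK-801 replicate 5, DESeq2 on the genes kept by filterByExpr and the spread with each rat left out were added after seeing the data.

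The 3 genes, the lists and the tests were chosen with earlier results of these data known. The genes to be named were the 3 genes and the 3 likest to each, of which the first is given. The RefSeq table on hand carries no Ensembl identifiers, so chaperones, other response genes and cell type markers are not analysed here, and the dissected region was not checked by markers. In all 45 pairs of libraries, counts differed by more than sampling noise (lowest chi-square per degree of freedom 8.83). Nothing in the labels gives a batch.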

Additional observations from a re-analysis of the deposited data

Results flagged for a closer look

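Among 12 groups of 5 rats, the 3 genes in log2 CPM and their 3 log2 ratios in each group, 1 had a rat that lay apart. Chance gives about 1 in 20, so 1 flag among 12 is no clear excess. The ratios are built from the same 3 genes, so the 12 groups are not independent. In the Fkbp5/Nr3c1 ratio of the control group, control replicate 5 lay below the others with a gap of 0.743 of the whole range, above the critical value of 0.71. Its ratio was 0.275, while control replicates 1 to 4 had between 0.299 and 0.307, and 3 MK-801 rats had between 0.274 and 0.276.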

How the results depend on the processing

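No alternative called Nr3c1, Fkbp5 or Sgk1 at an adjusted p-value under 0.05 in edgeR, DESeq2 or limma-voom. The log2 fold change of Nr3c1 was below 0, at -0.0016, with upper quartile scaling, and ranged from -0.034 to 0.054 with 1 rat left out, being -0.034 without MK-801 replicate 3 and -0.012 without control replicate 2. That of Fkbp5 was 0.062 with the top 10 genes' share of counts as a covariate and ranged from -0.038 to 0.015 with 1 rat left out, being 0.015 without control replicate 3, 0.012 without control replicate 4, and 0.0081 and 0.0067 without MK-801 replicates 1 and 5. That of Sgk1 stayed above 0, from 0.24 to 0.27 with all rats and from 0.11 to 0.34 with 1 left out. The Fkbp5/Nr3c1 difference ranged from -0.069 to 0.0085 with 1 rat left out and was above 0 without MK-801 replicate 1 (0.0072), 3 (0.0057) or 5 (0.0085). That of Sgk1/Nr3c1 ranged from 0.11 to 0.32, and that of Sgk1/Fkbp5 from 0.11 to 0.31, both lowest without MK-801 replicate 5 and highest without MK-801 replicate 1. Correlations stayed above 0, from 0.16 to 0.76, with 1 rat left out.

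Over all genes, calls at an adjusted p-value under 0.05 were 104 with DESeq2 without the filter and 117 with DESeq2 on the filtered genes, against 0 in edgeR (2235 genes at an unadjusted p-value under 0.05), and from 0 to 12 with 1 rat left out (12 without MK-801 replicate 1). Calls by the methods' criteria numbered 337 without a filter, 115 with DESeq2 without the filter, 37 with DESeq2 on the filtered genes and from 39 to 64 with 1 rat left out (58 without MK-801 replicate 1, 64 without MK-801 replicate 5), against 37. Unadjusted p-values under 0.05 numbered 777 with the covariate and from 1458 to 3280 with 1 rat left out (1458 and 1474 without control replicates 3 and 4), against 2235. Genes whose groups did not overlap were from 455 to 1173 with 1 rat left out, against 372, fewer rats making this easier to meet. They numbered 749 and 1173 without control replicates 1 and 5, and 683, 583, 610 and 612 without MK-801 replicates 2 to 5. For DESeq2 on the filtered genes and for the covariate, the cause was not tested.

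The labels name no pairs of rats, so none were assumed. Deviations of same-numbered rats correlated between -0.0489 and 0.319, above 0.1 in 3 of 5 pairs. Rats of different numbers were not compared, so this count cannot tell whether rats were paired, and pairing stays possible. The replicate block gave log2 fold changes of 0.0067 for Nr3c1, -0.0094 for Fkbp5 and 0.24 for Sgk1 (edgeR QL adjusted p = 0.305). Their SEs fell, their calls did not change, and 2862 genes had unadjusted p under 0.05. An exact sign-flip test of 5 pairs cannot go below p = 0.0625. Sgk1/Fkbp5, higher with MK-801 in 5 of 5 pairs, was at that floor (adjusted p = 0.188). Exact p was 0.188 for Sgk1/Nr3c1 (4 of 5) and 0.812 for Fkbp5/Nr3c1 (1 of 5). Alternatives for lists of other genes were not run.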
